A study of Mus musculus with 4 samples.

Results

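Glycolysis and hypoxia response genes were followed through 4 single-cell RNA libraries of mouse bone marrow. The set held 33 genes, taken by their symbols: 20 glycolytic enzymes, 4 transporters of glucose or lactate, and 9 hypoxia-induced genes and regulators. It was chosen with earlier results of these data known. All 33 were present among the 56941 features of the count tables. Aldoa had 2 IDs, which made 34 matching rows, and its ID with more UMIs (unique molecules counted) was used.

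The study addressed how the RNA-binding protein Rbm5, a splicing regulator, bears on gene expression in mouse leukaemia cells and in normal blood progenitors. The 4 groups were Rbm5 knockout (KO) MLL-AF9 leukaemia cells, wild-type (WT) MLL-AF9 leukaemia cells, KO c-Kit+ marrow cells and WT c-Kit+ marrow cells, with 1 library each. MLL-AF9 is a fusion oncogene of acute myeloid leukaemia, and c-Kit is the surface receptor by which stem and progenitor cells are usually enriched. The series' design text places both leukaemias at the same endpoint after a primary transplantation. The labels name neither the deleted part of Rbm5, nor a Cre driver, strain, sex, age or number of animals, nor the cells that were transduced. With 1 library per group, a difference between genotypes cannot be told apart from a difference between animals, leukaemias or preparations, so no test was made. Below, KO and WT stand for the libraries so labelled.

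The kept cells numbered 11406 to 13284 per library, with 86739221 to 96153076 UMIs and medians of 5168 to 7310.5 UMIs per cell. Any pair of libraries shared 44 to 69 cell barcodes. Rbm5 transcript did not check the labels, at 116 CPM (UMIs of the gene scaled to the library's total) in KO leukaemia against 160 CPM in WT leukaemia, and at 89.9 CPM in KO c-Kit+ cells against 75.4 CPM in WT c-Kit+ cells. Cells were sorted into gates by marker genes, a gate holding the cells whose best-expressed marker set had at least 3 markers detected. Hoxa9, a gene that MLL fusions keep active, was at 109 and 174 CPM in the secondary granule gate of KO and WT leukaemia, and at 2.06 and 1.60 CPM in that gate of KO and WT c-Kit+ cells. The c-Kit+ libraries were mostly neutrophil precursors with secondary granule genes, 55.3% of KO and 56.8% of WT cells. Their stem and multipotent progenitor gate held 1.5% of KO and 1.74% of WT cells.

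Glycolysis splits glucose into pyruvate in the cytosol. Glucose enters through carriers of the Slc2a family, and in rapidly glycolytic cells much of the pyruvate is reduced to lactate, which leaves through carriers of the Slc16a family. When oxygen is low, the transcription factor subunit encoded by Hif1a is no longer degraded and raises many of these genes, together with genes for blood vessel growth, mitophagy and the block of pyruvate entry into mitochondria. Neutrophils and their precursors rely heavily on glycolysis, and bone marrow is a tissue of low oxygen.

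The leukaemia libraries differed in all 4 transporters and in a minority of the enzymes. A ratio of 1.5 or more, or of 1/1.5 or less, was counted as a difference, among genes with a mean of at least 5 CPM over the pair of libraries. In KO leukaemia against WT leukaemia, 7 of 30 members tested were higher (23.3%) and 6 were lower (20%). Of all 9897 genes so tested, 9.96% were higher and 37.5% lower. The higher members were Slc2a1, Slc2a3, Slc16a1, Slc16a3, Ldhb, Vegfa and Bhlhe40, and the lower ones Hk2, Pfkfb3, Pfkfb4, Pgam1, Pdk1 and P4ha1. Aldoc, Eno2 and Pfkm were under the level filter in this pair. By class, 4 of 4 transporters were higher, 1 of 17 enzymes was higher and 4 were lower, and 2 of 9 hypoxia genes were higher and 2 lower. The median log2 ratio (of CPM plus 1, as for all log2 ratios here) was 1.22 over the transporters, 0.14 over the enzymes and 0.02 over the hypoxia genes.

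The all-gene median log2 ratio in that comparison was -0.39, so most genes read lower in KO leukaemia in CPM, and 22 of the 30 members lay above that median. With median-ratio size factors, which moved the all-gene median to -0.04, 13 members were higher and 3 lower, while 17.3% of all genes were higher and 17.0% lower. Aldoa, Gapdh, Hif1a, Pfkp, Pgk1 and Pkm then joined the higher members, and Hk2, P4ha1 and Pfkfb3 left the lower ones.

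**Figure D1:**
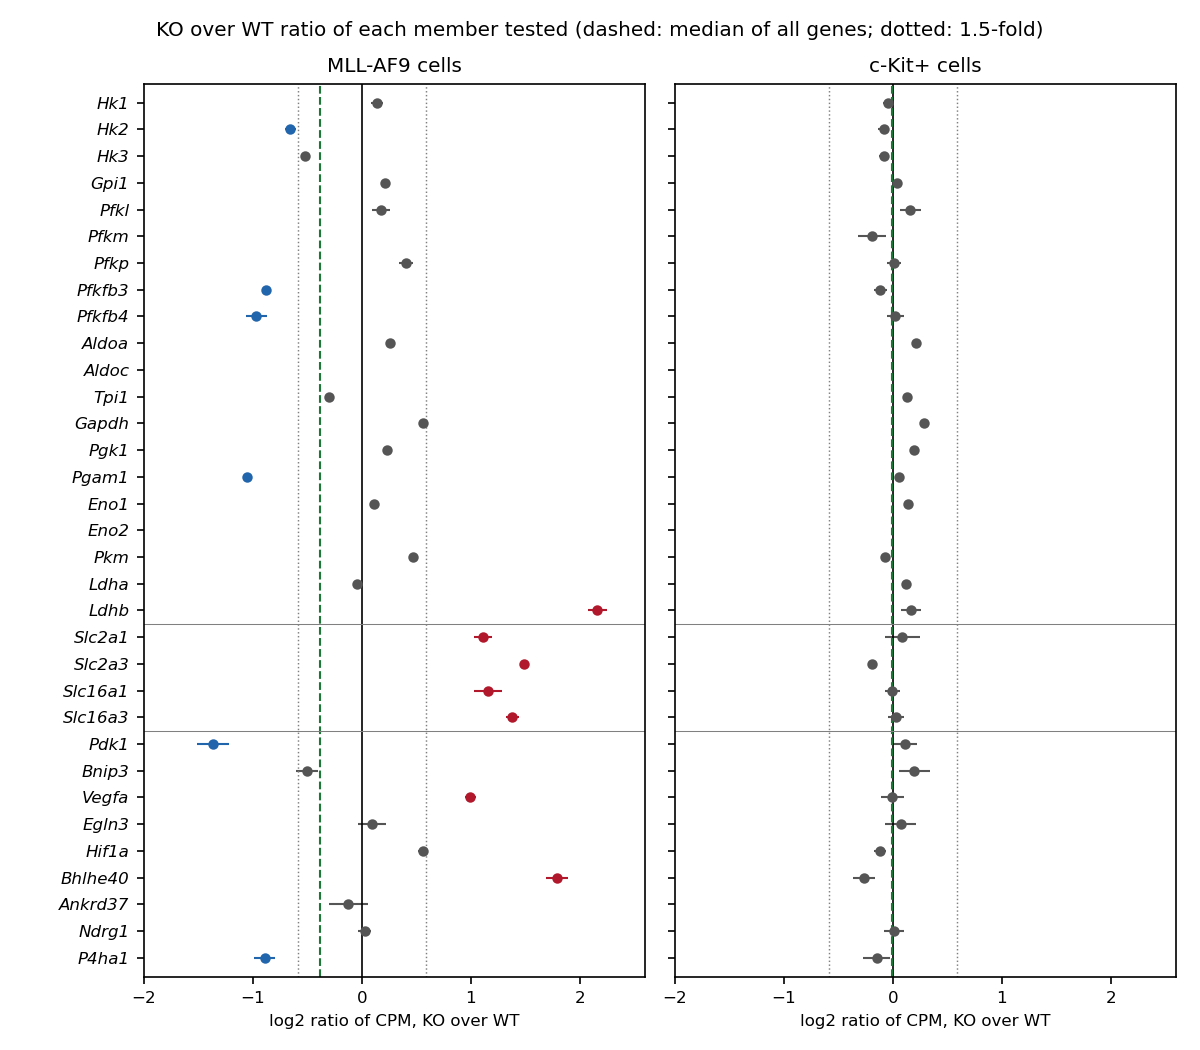
log2 ratio of CPM, KO over WT, for each member at 5 CPM or more, in MLL-AF9 cells (left) and c-Kit+ cells (right), with 95% intervals for counting error. Red and blue points are past 1.5-fold (dotted lines) and the dashed green line is the median of all genes. Points are drawn without the pseudocount. The ratios of the 4 transporters lie between 2.16 and 2.81 in leukaemia, and those of the 30 members tested in c-Kit+ cells lie between 0.831 and 1.22.

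Slc2a1 encodes GLUT1, the widespread glucose carrier. It was at 40.2 CPM in KO leukaemia, 18.6 CPM in WT leukaemia, 7.08 CPM in KO c-Kit+ cells and 6.68 CPM in WT c-Kit+ cells. Its ratio was 2.16 (95% interval 2.04 to 2.29, counting error only, as for all intervals here) in leukaemia, whereas in c-Kit+ cells it was 1.06 (0.948 to 1.19). Both leukaemias thus stood above both c-Kit+ libraries, KO leukaemia being highest.

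Slc2a3 encodes GLUT3, a carrier of high glucose affinity. Its level was 266 CPM in KO leukaemia and 94.7 CPM in WT leukaemia, against 85.2 CPM in KO c-Kit+ cells and 97.0 CPM in WT c-Kit+ cells. Here KO leukaemia stood alone, at a ratio of 2.81 (2.74 to 2.88) to WT leukaemia, and the other 3 libraries were close together. Slc16a3 encodes MCT4, which exports lactate from glycolytic cells. It, too, was highest in KO leukaemia. It was at 102 CPM in KO leukaemia, 39.2 CPM in WT leukaemia, 31.1 CPM in KO c-Kit+ cells and 30.5 CPM in WT c-Kit+ cells, with a KO over WT leukaemia ratio of 2.61 (2.51 to 2.71).

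Slc16a1 encodes MCT1, which carries lactate and pyruvate in both directions. It was at 17.8 CPM in KO leukaemia and 7.98 CPM in WT leukaemia, against 38.0 CPM in KO and 38.1 CPM in WT c-Kit+ cells. In library sums it alone among the transporters was lower in both leukaemias than in c-Kit+ cells. Its ratio between the leukaemias was 2.23 (2.04 to 2.44). Gates differed in the first respect. In the primary granule progenitor gate Slc16a1 was at 23.0 CPM in KO and 11.0 CPM in WT leukaemia. That gate of c-Kit+ cells had 38.8 CPM in KO and 38.0 CPM in WT cells. In the secondary granule gate, KO and WT leukaemia had 11.9 and 3.06 CPM, against 9.91 and 8.85 CPM in c-Kit+ cells. In the erythroid gate the values were 154 and 192 CPM against 141 and 143 CPM. Of the summed Slc16a1 and Slc16a3 UMIs, Slc16a3 made up 85.2% in KO leukaemia, 83.1% in WT leukaemia, 45.0% in KO c-Kit+ cells and 44.4% in WT c-Kit+ cells. These shares are of whole libraries. In the secondary granule gate of c-Kit+ cells Slc16a3 exceeded Slc16a1, at 47.2 CPM in KO and 46.8 CPM in WT cells.

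The promoters of the transporters and of the lactate dehydrogenase pair are shown because these genes carry the transport and lactate results, Ldhb differing between the leukaemias and Ldha not. Slc2a3 had no entry in the promoter table. RefSeq start sites on GRCm38.p6 were available for 30 of the 33 members, in windows from 250 bases before to 50 bases after each start. They were searched on both strands for ACGTG, a form of the core of the element that hypoxia-inducible factors bind. Other forms of that core were not searched. ACGTG is also part of the E-box CACGTG bound by other factors. It occurred in 24 of 44 member windows (54.5%) and in 19.6% of all 32851 windows of 300 bases in the table. The median C and G content was 61.7% in members and 52.7% in all windows. ACGTG contains the pair CG, whose median number was 20 in member windows and 7 in all windows. The part of these differences in the match shares was not tested, and a match is no evidence of binding. The 250 bases before each start follow, 5′ to 3′, with matches of either strand in capitals.
Slc2a1, chr4:119108495-119108744, plus strand: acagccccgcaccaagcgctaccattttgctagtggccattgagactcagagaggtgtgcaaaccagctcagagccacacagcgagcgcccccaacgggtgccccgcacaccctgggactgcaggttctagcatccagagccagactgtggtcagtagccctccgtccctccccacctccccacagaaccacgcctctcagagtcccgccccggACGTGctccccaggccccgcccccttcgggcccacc
Slc16a1, chr3:104638414-104638663, plus strand: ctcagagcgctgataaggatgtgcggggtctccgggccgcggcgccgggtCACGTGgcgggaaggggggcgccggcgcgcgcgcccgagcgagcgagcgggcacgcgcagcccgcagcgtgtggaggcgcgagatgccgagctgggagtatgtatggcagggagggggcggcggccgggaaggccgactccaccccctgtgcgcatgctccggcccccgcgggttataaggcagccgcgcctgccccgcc
Slc16a3, chr11:120948817-120949066, plus strand: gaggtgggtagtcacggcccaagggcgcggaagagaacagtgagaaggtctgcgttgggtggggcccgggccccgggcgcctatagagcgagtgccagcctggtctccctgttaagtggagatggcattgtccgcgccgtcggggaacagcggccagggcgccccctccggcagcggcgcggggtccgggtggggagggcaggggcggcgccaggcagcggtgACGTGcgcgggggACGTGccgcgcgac
Ldhb, chr6:142507958-142508207, minus strand: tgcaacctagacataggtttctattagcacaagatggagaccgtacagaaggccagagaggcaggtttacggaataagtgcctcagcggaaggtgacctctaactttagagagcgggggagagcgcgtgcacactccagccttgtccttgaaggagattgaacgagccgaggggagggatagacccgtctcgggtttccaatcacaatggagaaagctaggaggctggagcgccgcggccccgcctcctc
Ldha, chr7:46845554-46845803, plus strand: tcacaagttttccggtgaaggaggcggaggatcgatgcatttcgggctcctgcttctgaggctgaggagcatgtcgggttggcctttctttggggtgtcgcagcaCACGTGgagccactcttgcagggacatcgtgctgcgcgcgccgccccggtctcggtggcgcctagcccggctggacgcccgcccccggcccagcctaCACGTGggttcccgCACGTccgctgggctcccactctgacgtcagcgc

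The match of Slc2a1 begins 36 bases before its start, and the matches of Slc16a3 lie within the last 27 bases before its start. In Slc16a1 the E-box begins 200 bases before the start and is read as a match on each strand, and 1 further match lies after the start. Ldha, of which the window with most matches among its 2 starts is printed, has 5 matches, from 145 to 30 bases before that start. They include 2 E-boxes, each likewise read as a match on each strand, so the separate sites are fewer. Ldhb has no ACGTG in its window, where other forms of the core were not searched. Among members with a window, 4 of 6 windows of members higher in KO leukaemia had a match (66.7%). The share was 5 of 8 windows (62.5%) for lower members and 12 of 23 (52.2%) for those within 1.5-fold. By gene the counts were 4 of 5, 4 of 6 and 11 of 16, in the same order. Slc2a3 and Bhlhe40, both higher, had no window.

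Lactate dehydrogenase interconverts pyruvate and lactate, Ldha encoding its muscle-type and Ldhb its heart-type subunit. Ldhb was at 71.0 CPM in KO leukaemia, against 15.9 CPM in WT leukaemia, 22.6 CPM in KO c-Kit+ cells and 20.2 CPM in WT c-Kit+ cells. Its ratio of 4.48 (4.23 to 4.75) between the leukaemias was the highest of the 30 members tested in that pair. Ldha was at 251 CPM in KO and 259 CPM in WT leukaemia, and at 305 CPM in KO and 280 CPM in WT c-Kit+ cells, a leukaemia ratio of 0.967 (0.950 to 0.985). The Ldhb share of the pair's UMIs was 22.1% (21.6% to 22.5%, exact binomial) in KO leukaemia and 5.76% (5.47% to 6.06%) in WT leukaemia, against 6.91% in KO and 6.73% in WT c-Kit+ cells. A named Ldhb pseudogene held at most 0.286% of the Ldhb count in any library.

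At the entry steps KO leukaemia was lower or differed little in CPM. Hexokinases phosphorylate glucose. Hk2, the inducible form, was at 54.1 CPM in KO leukaemia, 85.2 CPM in WT leukaemia, 64.0 CPM in KO c-Kit+ cells and 67.9 CPM in WT c-Kit+ cells, a leukaemia ratio of 0.634 (0.612 to 0.657). Hk3, the form typical of myeloid cells, was at 214 CPM in KO and 308 CPM in WT leukaemia and at 79.9 CPM in KO and 84.7 CPM in WT c-Kit+ cells. Its leukaemia ratio of 0.696 (0.683 to 0.709) lay just inside the 1.5-fold limit. With median-ratio size factors Hk2 was inside that limit as well. Hk1, the housekeeping form, ranged from 55.5 to 68.7 CPM over the 4 libraries. Hk3 made up 65.0% of hexokinase UMIs in KO leukaemia and 68.6% in WT leukaemia, against 37.9% in KO and 38.3% in WT c-Kit+ cells.

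Phosphofructokinase makes the committed step, and the Pfkfb enzymes make and remove the sugar phosphate that activates it. Pfkfb3 was at 79.9 CPM in KO leukaemia, 147 CPM in WT leukaemia, 49.7 CPM in KO c-Kit+ cells and 53.8 CPM in WT c-Kit+ cells, a leukaemia ratio of 0.544 (0.529 to 0.560). Pfkfb4 was at 14.0 CPM in KO leukaemia, against 27.5 CPM in WT leukaemia, 28.4 CPM in KO c-Kit+ cells and 28.0 CPM in WT c-Kit+ cells. Thus Pfkfb4 in KO leukaemia lay below 3 similar libraries, at a ratio of 0.511 (0.477 to 0.546) to WT leukaemia. The kinase isoforms themselves stayed within 1.5-fold between the leukaemias in CPM. With median-ratio size factors Pfkfb3 came inside the limit and Pfkp passed it as higher. Pfkl was at 29.9 CPM in KO and 26.4 CPM in WT leukaemia, and at 18.9 CPM in KO and 16.9 CPM in WT c-Kit+ cells. Pfkp was at 51.5 CPM in KO and 38.9 CPM in WT leukaemia, and at 44.0 CPM in KO and 43.7 CPM in WT c-Kit+ cells. The muscle form Pfkm gave 210 UMIs in KO leukaemia and 221 in WT leukaemia, against 979 in KO and 1010 in WT c-Kit+ cells. Pfkm overlaps Senp1 on the opposite strand, and whether the counting used strand is not given in the sources used here, so its reads could be shared.

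In the trunk of the pathway Pgam1 alone passed the limit in CPM. With median-ratio size factors Pgam1 stayed lower, and Aldoa, Gapdh, Pgk1 and Pkm passed the limit as higher. Phosphoglycerate mutase, which Pgam1 encodes, shifts the phosphate of 3-phosphoglycerate. Pgam1 was at 301 CPM in KO leukaemia and 626 CPM in WT leukaemia, against 265 CPM in KO and 254 CPM in WT c-Kit+ cells. WT leukaemia was the library that stood apart, and the leukaemia ratio was 0.480 (0.474 to 0.487). Its 2 named pseudogenes held at most 0.0237% of its count. The neighbouring steps did not share this. Pgk1, which makes the substrate of Pgam1 and the pathway's first ATP, was at 288 CPM in KO and 245 CPM in WT leukaemia and at 209 CPM in KO and 184 CPM in WT c-Kit+ cells. Eno1, the enolase that takes up its product, was at 285 CPM in KO and 263 CPM in WT leukaemia and at 161 CPM in KO and 146 CPM in WT c-Kit+ cells.

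Gapdh, which oxidises glyceraldehyde phosphate, was at 1256 CPM in KO leukaemia, 848 CPM in WT leukaemia, 1008 CPM in KO c-Kit+ cells and 826 CPM in WT c-Kit+ cells. Its leukaemia ratio of 1.48 (1.47 to 1.49) fell just short of the limit. Among members tested in c-Kit+ cells, Gapdh also had the highest KO over WT ratio there, 1.22 (1.21 to 1.23). Pkm, the pyruvate kinase of the last step, was at 713 CPM in KO and 515 CPM in WT leukaemia, against 258 CPM in KO and 271 CPM in WT c-Kit+ cells. Aldoa, the main aldolase, was at 404 CPM in KO and 337 CPM in WT leukaemia, against 225 CPM in KO and 194 CPM in WT c-Kit+ cells. In CPM, Pkm and Aldoa thus differed more between WT leukaemia and WT c-Kit+ cells than between the leukaemias. With median-ratio size factors that order turned, with log2 ratios for KO over WT leukaemia of 0.82 for Pkm and 0.62 for Aldoa, and for MLL-AF9 over c-Kit+ WT cells of 0.58 for Pkm and 0.44 for Aldoa.

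Gpi1, the isomerase of glucose phosphate, was at 646 CPM in KO and 556 CPM in WT leukaemia and at 320 CPM in KO and 312 CPM in WT c-Kit+ cells. Tpi1, which interconverts the triose phosphates, was at 167 CPM in KO and 207 CPM in WT leukaemia and at 133 CPM in KO and 121 CPM in WT c-Kit+ cells. The minor isoforms were scarce. Aldoc gave 273 UMIs in KO and 241 in WT leukaemia, and 48 in KO and 38 in WT c-Kit+ cells. Eno2 gave 2 or 3 UMIs in each library.

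**Figure D2:**
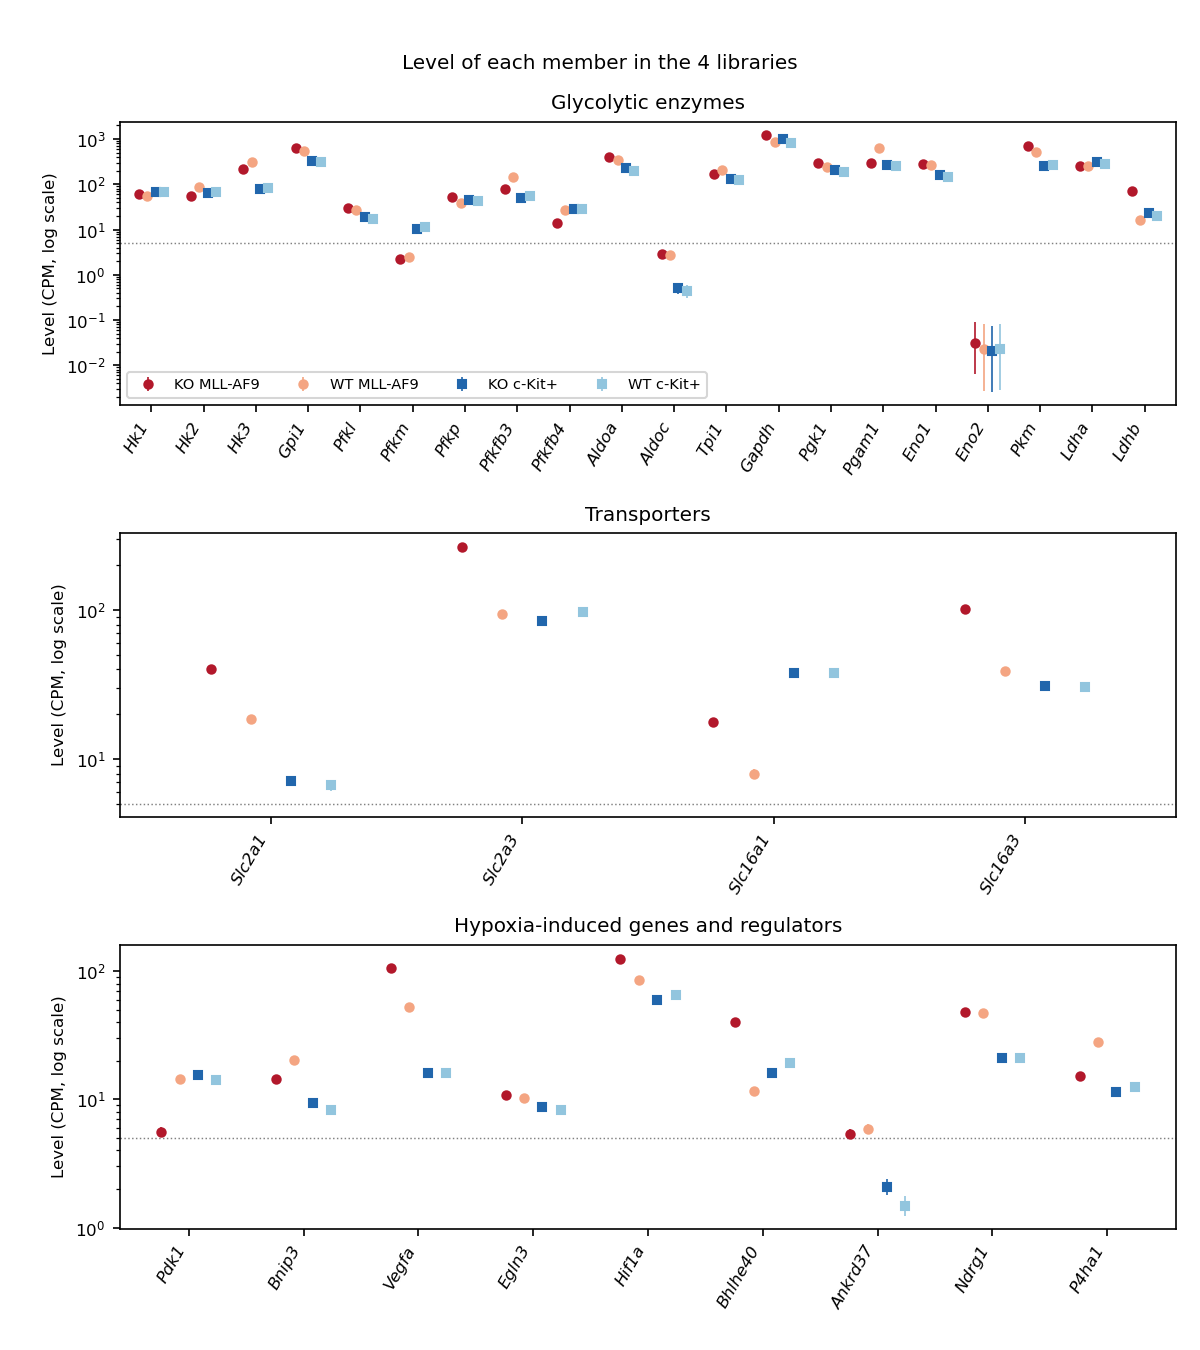
Level of each member in CPM (log scale) in the 4 libraries, by class, with exact Poisson 95% intervals; red circles are leukaemia and blue squares c-Kit+ cells, darker for KO. The dotted line marks 5 CPM. The 2 c-Kit+ points nearly coincide for most members. KO leukaemia stands highest for Slc2a1, Slc2a3, Slc16a3, Ldhb, Vegfa and Bhlhe40, and also for members within 1.5-fold of WT leukaemia, such as Gpi1, Gapdh, Pkm and Hif1a.

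Among hypoxia-induced genes, Vegfa and Bhlhe40 were higher in KO leukaemia and Pdk1 and P4ha1 lower. Vegfa, which encodes a growth factor for blood vessels, was at 106 CPM in KO leukaemia, 52.9 CPM in WT leukaemia and 16.1 CPM in each c-Kit+ library. Its leukaemia ratio was 2.0 (1.93 to 2.07), and both leukaemias stood well above the c-Kit+ cells. Bhlhe40, a transcriptional repressor, was at 39.9 CPM in KO leukaemia, 11.5 CPM in WT leukaemia, 16.0 CPM in KO c-Kit+ cells and 19.3 CPM in WT c-Kit+ cells. For Bhlhe40, WT leukaemia was the lowest library, and the ratio was 3.46 (3.23 to 3.71).

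Pdk1, the kinase that shuts pyruvate dehydrogenase, was at 5.62 CPM in KO leukaemia, against 14.5 CPM in WT leukaemia, 15.4 CPM in KO c-Kit+ cells and 14.3 CPM in WT c-Kit+ cells. KO leukaemia was thus below 3 similar libraries, at a ratio of 0.387 (0.350 to 0.429) to WT leukaemia. P4ha1, a collagen prolyl hydroxylase subunit, was at 15.2 CPM in KO leukaemia, 28.2 CPM in WT leukaemia, 11.3 CPM in KO c-Kit+ cells and 12.6 CPM in WT c-Kit+ cells. Here WT leukaemia was the high library, and the ratio was 0.539 (0.505 to 0.576).

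Hif1a itself was at 125 CPM in KO leukaemia, 85.1 CPM in WT leukaemia, 59.6 CPM in KO c-Kit+ cells and 64.7 CPM in WT c-Kit+ cells. Its ratio of 1.47 (1.43 to 1.52) spanned the limit. Its mRNA does not report the protein, which oxygen controls after translation. Bnip3, a mitophagy receptor, was at 14.4 CPM in KO and 20.4 CPM in WT leukaemia, and at 9.44 CPM in KO and 8.24 CPM in WT c-Kit+ cells. Egln3, a prolyl hydroxylase that marks the Hif1a protein for degradation, stayed between 8.28 and 10.9 CPM in all 4 libraries. Ndrg1, a stress-responsive gene, was at 47.9 CPM in KO and 47.1 CPM in WT leukaemia, and at 21.2 CPM in KO and 21.1 CPM in WT c-Kit+ cells. Ankrd37 gave 514 UMIs in KO and 515 in WT leukaemia, and 200 in KO and 129 in WT c-Kit+ cells. It overlaps Ufsp2 on the opposite strand, which had 13066 UMIs over the 4 libraries against 1358 for Ankrd37.

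In c-Kit+ cells the genotypes lay close together. Of 30 members tested there, 0 were 1.5-fold higher and 0 lower in KO c-Kit+ cells than in WT c-Kit+ cells, beside 0.345% of all genes higher and 0.22% lower. The lowest log2 ratio was -0.25, for Bhlhe40, and the highest 0.29, for Gapdh. Among the transporters the lowest ratio was that of Slc2a3, 0.878 (0.852 to 0.906). With 0 members past the limit under all 12 other settings in either direction, no member could be singled out in this pair.

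The KO over WT ratio of each member was also set against that in the other cell pair, as the leukaemia ratio divided by the c-Kit+ ratio. Of 29 members tested in both pairs, 8 were apart upward by 1.5-fold or more and 6 downward, beside 10.2% of all genes upward and 36.9% downward. The quotient was 4.16 for Bhlhe40, 4.0 for Ldhb, 3.20 for Slc2a3, 2.56 for Slc16a3, 2.24 for Slc16a1, 2.04 for Slc2a1, 2.01 for Vegfa and 1.60 for Hif1a. The downward members were Pdk1 at 0.359, Pgam1 at 0.461, Pfkfb4 at 0.503, Pfkfb3 at 0.589, P4ha1 at 0.597 and Bnip3 at 0.616. With median-ratio size factors 11 were apart upward and 3 downward, beside 18.2% and 15.5% of all genes. These quotients carry no test.

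Leukaemia was also compared with c-Kit+ cells of the same genotype. In KO cells, 16 of 30 members were higher in MLL-AF9 than in c-Kit+ cells and 4 lower, beside 24% of all genes higher and 26.7% lower. In WT cells, 14 of 30 were higher in MLL-AF9 than in c-Kit+ cells and 3 lower, beside 34.1% of all genes higher and 11.8% lower. In the WT pair the highest ratios were those of Hk3, 3.63 (3.54 to 3.73), Vegfa, 3.28 (3.09 to 3.48), Slc2a1, 2.78 (2.53 to 3.07), and Pfkfb3, 2.73 (2.64 to 2.82). The lowest were those of Slc16a1, 0.209 (0.193 to 0.227), and Pfkm, 0.217 (0.187 to 0.251). Both are ratios of library sums, and the erythroid gate held 6.11% of WT c-Kit+ but 0.705% of WT leukaemia cells. Erythroid c-Kit+ cells of WT reached 143 CPM for Slc16a1 and 60.3 CPM for Pfkm, erythroid WT leukaemia cells 192 and 20.4 CPM. Over 11 alternative settings, the log2 ratio ranged from -2.44 to -0.47 for Slc16a1 and from -2.16 to -0.94 for Pfkm. The part of cell make-up was not tested beyond these values. In the KO pair Vegfa reached 6.57 (6.23 to 6.94) and Slc2a1 5.68 (5.23 to 6.17), and Slc2a3 and Slc16a3 were at 3.13 (3.05 to 3.21) and 3.29 (3.16 to 3.43). The WT pair's all-gene median log2 ratio was 0.27 and depended on the scaling. With median-ratio size factors 8 members were higher and 5 lower in WT leukaemia, beside 19.3% and 22.9% of all genes.

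**Figure D3:**
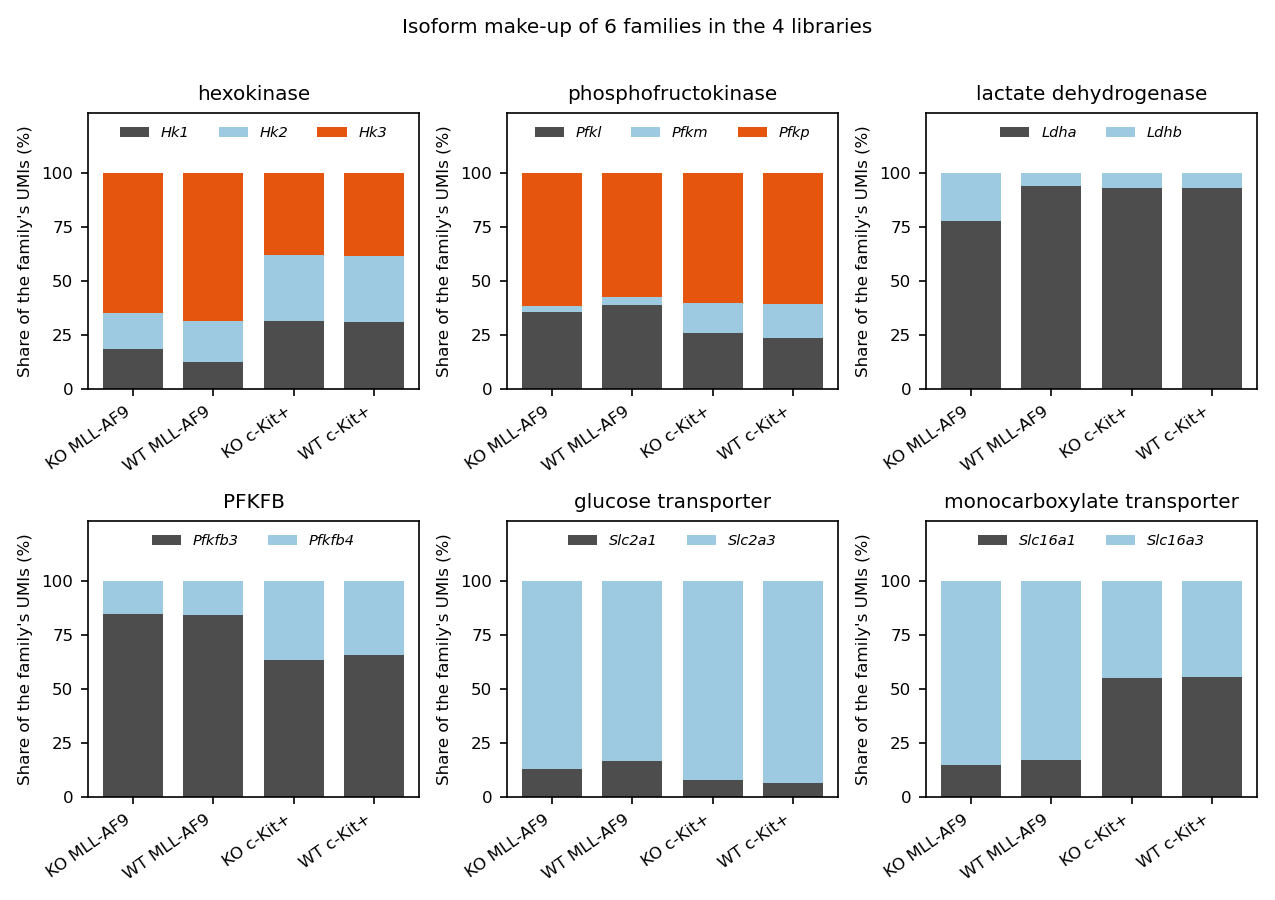
Share of each isoform in the UMIs of its family (%), in 6 families and 4 libraries, KO left of WT in each pair. Ldhb takes 22.1% in KO leukaemia against 5.76% in WT leukaemia. In these library sums, which mix cell types, Hk3 and Slc16a3 take larger shares in both leukaemias than in both c-Kit+ libraries. The part of cell make-up in these shares was not tested.

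The libraries differed in make-up, and these values stand beside every whole-library ratio above. The secondary granule gate held 74.6% of KO and 47.2% of WT leukaemia cells, and the primary granule progenitor gate 10.9% and 24.5%. Erythroid markers summed to 4761 CPM in KO and 950 CPM in WT leukaemia, and cycling markers to 732 and 1095 CPM. A list of 11 early response and heat shock genes, which cell handling is known to raise, summed to 8383 CPM in KO and 406 CPM in WT leukaemia, against 1935 CPM in KO and 2118 CPM in WT c-Kit+ cells. The part of these differences in the members' ratios was not tested beyond the values that follow. In a sum over cells, fewer cells of a type and less RNA per cell cannot be told apart. With CPM averaged over gates at the same weights in both leukaemias, 8 members were higher and 5 lower. Hif1a joined the higher members and Hk2 left the lower ones, while the log2 ratio was 2.18 for Ldhb, 1.06 for Slc2a1, 1.04 for Slc2a3, 0.90 for Slc16a1 and 1.16 for Slc16a3.

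Within the secondary granule gate (8507 KO and 6032 WT leukaemia cells), 9 of 29 members were higher and 5 lower, beside 10.2% and 34.3% of all genes there. All 4 transporters were among the higher ones. Slc2a1 was at 41.4 CPM in KO and 18.9 CPM in WT cells, and Slc2a3 at 345 CPM in KO and 162 CPM in WT cells. Slc16a1 was at 11.9 CPM in KO and 3.06 CPM in WT cells, and Slc16a3 at 120 CPM in KO and 47.6 CPM in WT cells. Ldhb was at 67.5 CPM in KO and 16.4 CPM in WT cells, a ratio of 4.12 (3.79 to 4.48).

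Within the primary granule progenitor gate (1246 KO and 3131 WT cells), 6 of 29 members were higher and 5 lower, beside 9.29% and 24.3% of all genes. This gate overlapped the secondary granule one in markers. Its cells had medians of 5 own and 5 secondary granule markers in KO leukaemia, and of 4 and 4 in WT leukaemia. Ldhb had its highest gated level there, 121 CPM in KO and 19.7 CPM in WT cells, at a ratio of 6.16 (5.62 to 6.75). Slc2a3 was at 61.6 CPM in KO and 19.7 CPM in WT cells, and Slc16a3 at 37.8 CPM in KO and 28.5 CPM in WT cells. At a ratio of 1.33 (1.20 to 1.47), Slc16a3 did not pass the limit in this gate. Pgam1 was at 490 CPM in KO and 852 CPM in WT cells, a ratio of 0.576 (0.562 to 0.590).

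Within the late neutrophil gate (468 KO and 688 WT cells), 6 of 28 members were higher and 7 lower, beside 15.7% and 37.8% of all genes. Slc16a3 was at 415 CPM in KO and 132 CPM in WT cells, a ratio of 3.15 (2.73 to 3.64), and Vegfa at 294 CPM in KO and 33.2 CPM in WT cells, a ratio of 8.86 (6.85 to 11.6). Slc2a3 was high in both, at 557 CPM in KO and 480 CPM in WT cells, and stayed within 1.5-fold. Within the monocytic gate (687 KO and 1732 WT cells), 8 of 31 members were higher and 6 lower, beside 10.4% and 31% of all genes. Bhlhe40 was at 70.2 CPM in KO and 4.64 CPM in WT monocytic cells, a ratio of 15.1 (11.2 to 20.9). Vegfa was at 59.9 CPM in KO and 10.2 CPM in WT monocytic cells.

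The remaining 3 gates were small. The class II gate (85 KO and 334 WT cells) had 6 members higher and 7 lower, beside 16.1% and 38% of all genes. The erythroid gate (250 KO and 90 WT cells) had 4 higher and 7 lower, beside 8.38% and 37.2% of all genes. The T or NK gate (79 KO and 90 WT cells) had 10 higher and 5 lower, beside 19.8% and 33.4% of all genes. Counts were few there: Ldhb rested on 20 KO and 5 WT UMIs in the erythroid gate and on 2 KO and 5 WT UMIs in the T or NK gate. Slc16a1 was high in erythroid cells of both leukaemia libraries, at 154 CPM in KO and 192 CPM in WT cells, a ratio of 0.799 (0.665 to 0.965).

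The gates are parts of the same libraries and not independent repeats. Secondary granule markers were also detected in erythroid cells (median 3 in KO and 3 in WT) and T or NK cells (median 3 in KO and 2 in WT). Over all 7 gates, Bhlhe40 was higher in KO cells in 7 and Pfkfb3 lower in 7. Slc2a1 was higher in 6 gates, in the erythroid one on 3 WT UMIs, and Ldhb, Slc16a1, Vegfa, Hif1a and Pfkp in 5. Other calls also rested on few UMIs. In the erythroid gate Bhlhe40 had 39 KO and 3 WT UMIs, and Pfkp 51 and 8. Slc16a1 had 5 KO and 2 WT UMIs in the class II gate. Vegfa had 10 KO and 2 WT UMIs in the T or NK gate. Pgam1 and Pdk1 were lower in 5. Slc16a3 was higher in the secondary granule, late neutrophil and erythroid gates, in the last on 36 KO and 6 WT UMIs. It was lower in the T or NK gate, where it had 2 KO and 3 WT UMIs. Slc2a3 was higher in the secondary granule and primary granule progenitor gates and lower in the class II and T or NK gates. Pfkp and Hif1a thus passed the limit in most gates while staying inside it in the library sums in CPM.

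**Figure D4:**
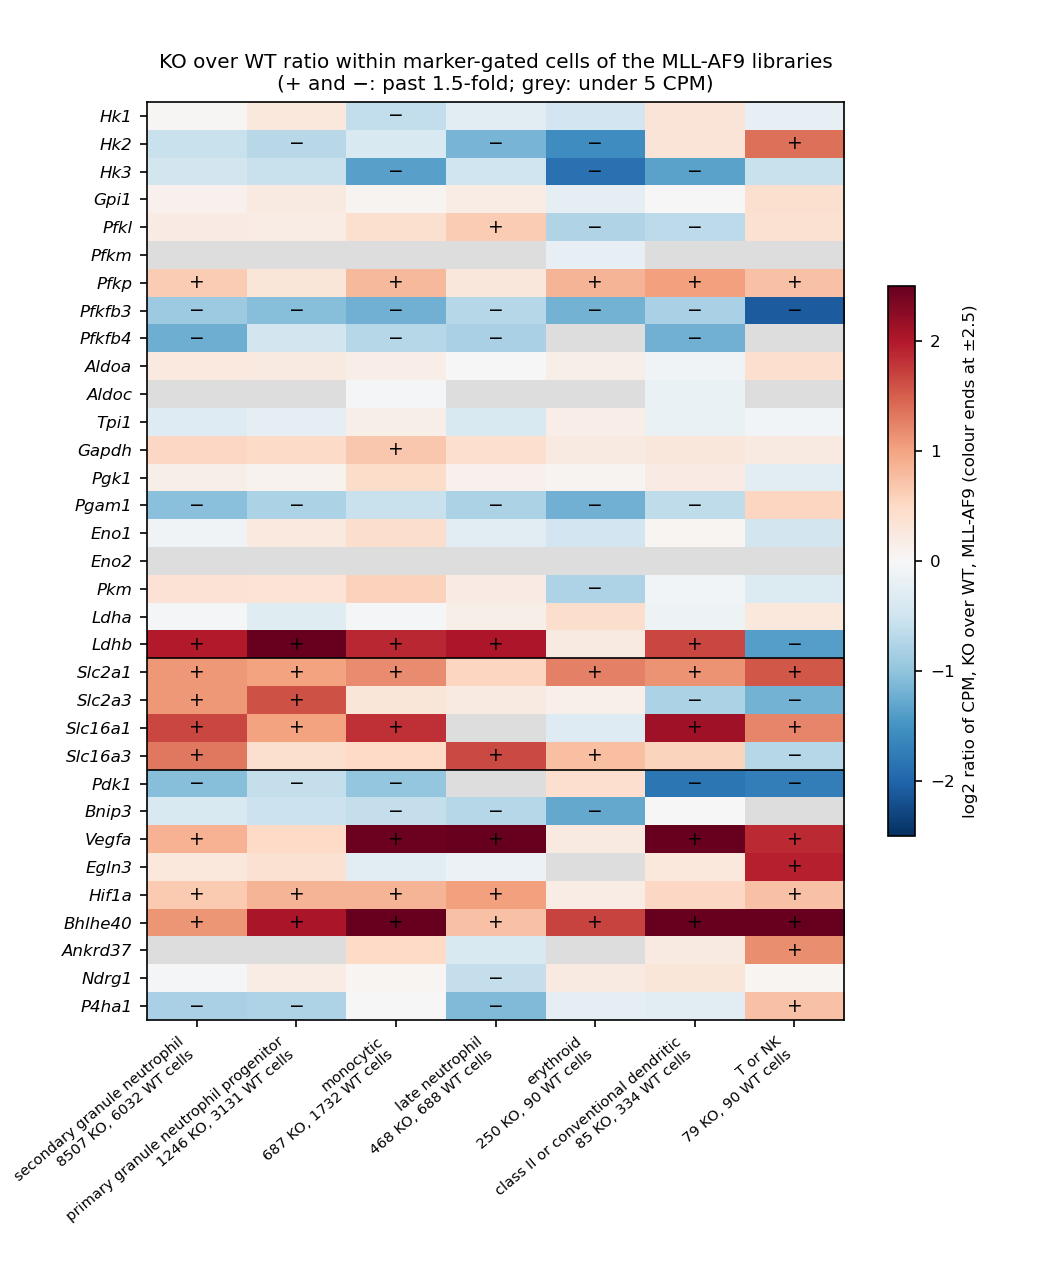
log2 ratio of CPM, KO over WT, of each member (rows, by class) in 7 marker-gated cell groups of the leukaemia libraries (columns, with cell numbers). Plus and minus mark ratios past 1.5-fold and grey marks a mean under 5 CPM. Bhlhe40 is higher and Pfkfb3 lower in all 7 columns, while Slc2a3 is higher in 2 and lower in 2.

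In c-Kit+ cells 11 gates could be compared. Over 296 tests of a member in a gate, 27 were higher (9.12%) and 23 lower (7.77%) in KO cells, beside 9.69% and 8.23% of all genes tested per gate, so the members' shares were near the background. In the 3 gates with most cells of KO c-Kit+ marrow (secondary granule, primary granule progenitor and erythroid), 0 members were higher and 0 lower. The c-Kit+ gates also show where members are normally high. Slc16a1 was highest in the erythroid gate (141 CPM in KO and 143 CPM in WT cells) and the B lineage gate (119 CPM in KO and 121 CPM in WT cells). Slc16a3 was highest in late neutrophils, at 417 CPM in KO and 324 CPM in WT cells. Slc2a3 was also highest there, at 409 CPM in KO and 487 CPM in WT cells. Pfkp was highest in the basophil or mast gate, at 397 CPM in KO and 484 CPM in WT cells.

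The share of cells with a UMI was compared after each cell was thinned to 2000 UMIs, since KO leukaemia cells were the deepest. In the secondary granule gate Ldhb was seen in 10.9% (10.2% to 11.6%) of 8111 KO cells and 2.92% (2.49% to 3.39%) of 5619 WT cells. Without thinning the shares were 32.6% of KO and 8.62% of WT cells, at medians of 7084 and 5790 UMIs. In the erythroid gate, where Ldhb was low, thinned shares were 0.437% of 229 KO and 1.18% of 85 WT cells, at medians of 9187.5 and 6604 UMIs before thinning. Slc16a3 was seen in 57.6% (53.0% to 62.2%) of 458 KO and 23.6% (20.2% to 27.2%) of 585 WT late neutrophils, against 1.75% of KO and 3.53% of WT erythroid cells. Cells under 2000 UMIs were left out, 10 of the KO and 103 of the WT late neutrophils.

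Members differed in how they went with the early response genes within a library. Cells of the secondary granule gate were ranked by the share of their UMIs from that list and cut into 4 bins of equal size, with 2126 to 2127 KO and 1508 WT leukaemia cells. Even the lowest KO bin, at 3218 CPM for the list, lay above the highest WT bin, at 949 CPM, so no bins of like level existed in the 2 libraries. From the lowest to the highest KO bin, Vegfa was at 69.0, 93.6, 116 and 206 CPM, against 60.2, 61.6, 61.4 and 66.2 CPM in the WT bins. Slc16a3 was at 73.0, 111, 139 and 176 CPM in the KO bins and at 44.6, 44.8, 47.8 and 54.7 CPM in the WT bins. Slc2a3 was at 269, 328, 371 and 442 CPM in the KO bins and at 140, 146, 159 and 214 CPM in the WT bins. For these 3 genes the lowest KO bin was thus the nearest to the WT cells.

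Ldhb declined along the KO bins but not along the WT bins, at 84.7, 65.5, 62.5 and 52.2 CPM in the KO bins and 13.3, 15.2, 18.8 and 18.3 CPM in the WT bins. Bhlhe40 was at 37.8, 35.2, 32.4 and 29.9 CPM in the KO bins and at 16.1, 14.6, 15.0 and 15.9 CPM in the WT bins. Slc16a1 was at 11.1, 12.8, 12.9 and 10.6 CPM in the KO bins and at 2.25, 4.30, 2.64 and 2.74 CPM in the WT bins, with no order along the bins. In the lowest KO bin all 6 genes lay above every WT bin, Vegfa by the least, at 69.0 CPM against at most 66.2 CPM. Without bins of like level in both libraries, the part of the early response difference in these ratios was not tested. The bins are ranges and not cell types, with 760 to 985 KO and 194 to 459 WT cells within 10% of a cut, and their median depth was 5426.5 to 8416 UMIs in KO and 4794.5 to 6694.5 UMIs in WT cells.

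**Figure D5:**
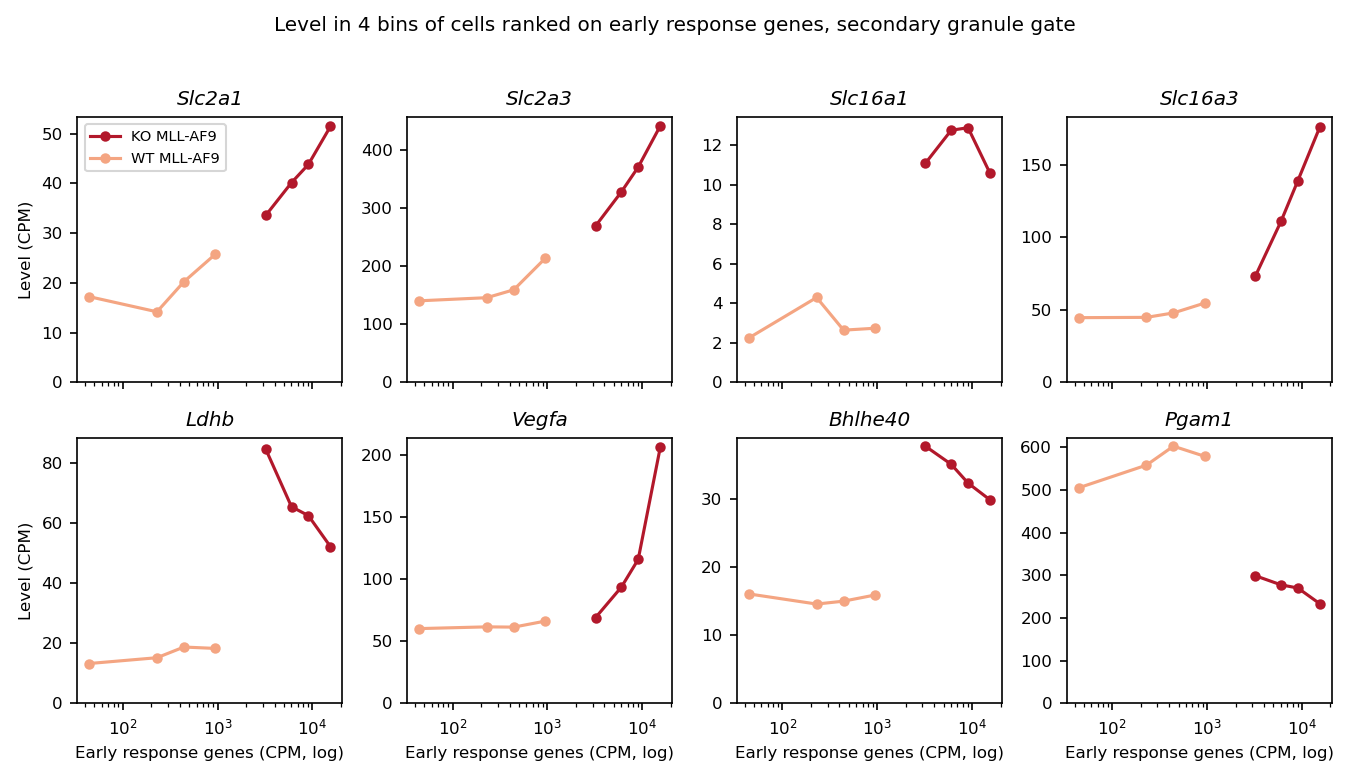
Level (CPM) of 8 members in the secondary granule gate of KO and WT leukaemia, for 4 bins of cells per library ranked by early response genes (summed CPM, log scale). Vegfa and Slc16a3 climb along the KO bins, from 69.0 to 206 CPM and from 73.0 to 176 CPM, while Ldhb declines.

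Cycling and non-cycling cells of the same gate were also compared within each library, a cycling cell having at least 3 of 5 cycling markers. In the secondary granule gate of KO leukaemia, Slc2a3 was at 163 CPM in 1269 cycling cells and 420 CPM in 4646 cells with none of the markers, a ratio of 0.388 (0.372 to 0.404). The ratio was 0.336 (0.313 to 0.360) in WT leukaemia, 0.394 (0.372 to 0.416) in KO c-Kit+ cells and 0.346 (0.327 to 0.366) in WT c-Kit+ cells. Slc16a1 had the opposite sign in that gate, at ratios of 2.36 (1.99 to 2.81) in KO leukaemia, 6.42 (3.37 to 13.5) in WT leukaemia, 3.40 (2.46 to 4.81) in KO c-Kit+ cells and 6.02 (4.06 to 9.28) in WT c-Kit+ cells. Ldhb was 4.73-fold (3.70 to 6.12) higher in cycling KO c-Kit+ cells and 6.23-fold (4.70 to 8.44) higher in cycling WT c-Kit+ cells, but its ratio was 1.31 (1.22 to 1.41) in KO and 0.828 (0.686 to 1.0) in WT leukaemia. Cycling cells were deeper, with medians of 12752 against 6388 UMIs in KO leukaemia and 9995 against 4959.5 UMIs in WT leukaemia.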

How the data were processed

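Raw UMI counts per gene and cell barcode were deposited by the authors for 4 libraries, written by Cell Ranger 7.1.0 per the file headers, on build mm10 per the submitters' processing notes. The gene annotation and how barcodes were selected are not given in the sources used here. Barcodes with at least 500 genes, at least 1000 UMIs and at most 10% mitochondrial UMIs were kept, and Scrublet (scanpy 1.11.5, expected rate 0.08) was used to remove doublets, 3.09% to 4.46% of the barcodes that passed. Counts were summed per library or gate and scaled to the total of that sum (CPM), with a pseudocount of 1 CPM on the log2 scale. Exact 95% intervals (conditional binomial for ratios, Poisson for UMIs, Clopper-Pearson for shares; scipy 1.17.1, numpy 2.4.6) cover counting error only. TMM factors came from edgeR 4.0.16, and no count model was fitted, since each group was 1 library. The calculation of ratios and calls was tested on simulated data.

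Cells entered the gate of the marker set, of 13, with the highest mean expression among sets with at least 3 markers detected, and gates with at least 50 cells in both libraries were compared. Gates are marker scores and not annotated cell types. All 33 members are named, and from 6 other lists up to 3 genes with the largest absolute log2 ratio. Alternatives changed the cell filter, doublets, scaling, weights, fold, level filter and gate rule. The members and lists were chosen with earlier results of these data known, and the early response bins, the cycling split and the alternatives for the quotient of KO over WT ratios and for the other lists were chosen after seeing the data. Gene positions were from GENCODE M21 (GRCm38) and promoters from RefSeq (GRCm38.p6).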

Additional observations from a re-analysis of the deposited data

How the results depend on the processing

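Against 7 higher and 6 lower members in KO over WT leukaemia, median-ratio size factors gave 13 and 3 and TMM factors 11 and 3; the lower count was also 2 at a 2-fold limit and 3 at a level filter of 25 CPM. Against 14 higher and 3 lower members in MLL-AF9 over c-Kit+ WT cells, median-ratio factors gave 8 and 5 and TMM factors 9 and 5; the higher count was 8 at a 2-fold limit and the lower count 0 at 25 CPM. In KO cells the lower count of 4 became 1 at 25 CPM. For the quotient of KO over WT ratios, against 8 upward and 6 downward, the downward count was 3 with median-ratio or TMM factors and 2 at a 2-fold limit, and 25 CPM gave 3 upward and 2 downward. All-gene shares at the TMM, 2-fold and 25 CPM settings are not given here. In c-Kit+ gates of 4 or more markers, members passed 15 times as higher and 10 times as lower, in 9 gates in place of 11. In those gates 0.636% to 15.2% of all genes were higher and 0.226% to 16.4% lower. A higher level filter tests fewer genes; the cause of the other shifts was not tested. The other 104 recomputed counts stayed within 1.5 times their main value. The 13 members called in KO over WT leukaemia kept their sign in 11 of 11 alternatives each. No paired analysis was possible because each group had 1 library. With 1 library per group, replicate error is unknown, and gates of under 100 cells gave few UMIs per member.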

Other observations

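Related pathways outside the 33 genes differed between the leukaemias in parts, beside 9.96% of all genes higher and 37.5% lower in KO leukaemia. These counts depended on the scaling, and with median-ratio size factors 17.3% of all genes were higher and 17.0% lower. Of 23 other hypoxia-inducible genes tested, 6 were higher and 7 lower, against 9 and 3 of 22 with size factors. Cited2, whose product competes with hypoxia-inducible factors for a coactivator, was at 487 CPM in KO and 140 CPM in WT leukaemia. Ddit4, an inhibitor of mTORC1 signalling, was at 41.7 CPM in KO and 11.5 CPM in WT leukaemia, and Nfil3, a transcription factor, at 81.7 CPM in KO and 24.97 CPM in WT leukaemia. Of 10 other regulators of the pathway 0 were higher and 3 lower in CPM, but 2 higher and 0 lower with size factors. Egln1, the main oxygen-sensing prolyl hydroxylase, was at 20.0 CPM in KO and 35.5 CPM in WT leukaemia, a log2 ratio of -0.80 that became -0.45 with size factors, inside the limit.

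Of 14 other genes of sugar breakdown 5 were higher and 3 lower, against 6 and 2 of 13 with size factors. Ldhc, a lactate dehydrogenase known from testis, was at 23.1 CPM in KO and 2.66 CPM in WT leukaemia. Adpgk, a glucokinase that uses ADP, was at 400 CPM in KO and 165 CPM in WT leukaemia, and Slc16a7, a pyruvate and lactate carrier, at 8.10 CPM in KO and 28.0 CPM in WT leukaemia. In CPM 0 of 8 pentose phosphate genes were higher and 0 lower. With size factors 1 was higher, Tkt, the transketolase, whose log2 ratio was 0.53 in CPM and 0.89 with size factors. Of 10 genes of pyruvate entry to mitochondria 0 were higher and 2 lower: Pdpr, a regulatory subunit of pyruvate dehydrogenase phosphatase, at a ratio of 0.442, and Dlat, a core subunit of pyruvate dehydrogenase, at 0.607. With size factors 1 was lower, Dlat having a log2 ratio of -0.34.

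Of 11 glycogen genes 1 was higher and 4 lower in KO leukaemia, against 3 and 4 with size factors. The phosphorylase kinase subunits Phka2, Phka1 and Phkb had ratios of 0.408, 0.409 and 0.439. In WT cells 9 of these 11 were higher in MLL-AF9 than in c-Kit+ cells and 0 lower, beside 34.1% and 11.8% of all genes. With size factors 4 were higher and 0 lower, beside 19.3% and 22.9% of all genes. In c-Kit+ cells 0 genes of these 6 lists were higher and 0 lower in KO than in WT under either scaling.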
